A study of Mus musculus with 9 samples.

Results

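Oxidative phosphorylation genes were read in sorted thymocytes of mice with a knockout of Srsf1 (SRSF1KO) and of WT mice. SRSF1 is an RNA-binding protein of the serine/arginine-rich family that takes part in pre-mRNA splicing. The members were chosen by symbol alone: rows of the count table whose Ensembl ID belongs to a symbol starting with Nduf, Uqcr, Cox4 to Cox8 or Atp5, one of the Sdha to Sdhd genes, or a protein-coding gene of the mitochondrial genome. Of 119 rows with such symbols, 9 with pseudogene (-ps) symbols and 3 that RefSeq lists as pseudogenes were left out. The remaining 107 members, of 53715 genes in the table, comprised 94 genes of the nuclear genome and all 13 protein-coding genes of the mitochondrial genome. They held 44 genes of complex I, 4 of complex II, 9 of complex III, 23 of complex IV and 19 of complex V (ATP synthase). A further 8 were Ndufaf genes, whose products assemble complex I and are not subunits of it, although the symbol pattern takes them in.

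The SRSF1KO group (genotype Srsf1fl/flLckcre/+, 2 libraries) carries loxP-flanked Srsf1 alleles and a Cre driven by the promoter of Lck, a kinase gene of the T cell lineage. The comparison group is labelled only WT (3 libraries). All mice were C57BL/6, aged 6 to 8 weeks, and the cells were sorted from thymus as TCRβ+CD69+CD24+CD4+CD8+, a gate for double-positive thymocytes that have begun to signal through the T cell receptor. Whether the libraries came from separate animals is not in the labels. By the Y-linked gene Ddx3y, described below, SRSF1KO replicate 1 and WT replicate 2 had a male pattern and the others a female one. Libraries of different pattern cannot be repeats of the same mouse, and both groups hold both patterns. WT replicates 1 and 3 share a pattern, so their difference may be technical. Every p-value reflects the spread of these 5 libraries alone.

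Oxidative phosphorylation passes electrons from NADH (complex I) and succinate (complex II) through complex III to oxygen at complex IV, and the proton gradient built on the way drives ATP synthesis at complex V. Complexes I, III, IV and V are mosaics of subunits made from nuclear genes and imported into mitochondria and of core subunits made inside mitochondria from their own DNA. Complex II is nuclear throughout. Thymocytes at positive selection draw on both respiration and glycolysis.

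Libraries held 36026006 to 38985285 counts. Levels are CPM, counts scaled to library size with TMM factors, and compare libraries but not genes of different length. The targeted gene Srsf1 stood at 42.6 and 30.9 CPM in SRSF1KO, against 96.9, 122.7 and 103.1 CPM in WT, and the counts cover the whole gene, so deleted and retained exons cannot be told apart. The 12 gate markers summed to 12643 to 14261 CPM in SRSF1KO and 12661 to 14024 CPM in WT. Of the marker lists for other cells, those of erythroid cells (6 genes, 5 tested, 0 with a negative log2 fold change) and of NK and γδ T cells (5 genes, 4 tested, 1 negative) had sums in both SRSF1KO libraries above those of all WT libraries. The erythroid sum was 22.9 to 99.1 CPM in SRSF1KO and 2.54 to 12.7 CPM in WT, and the NK and γδ sum was 102 to 125 CPM in SRSF1KO and 59.1 to 88.5 CPM in WT. The sums of the B cell, myeloid, thymic epithelial and stromal markers overlapped between the groups, no marker of any list was at 0 in all libraries, and the part of these cells in the values given here was not tested. Such sorted bulk RNA cannot tell fewer cells of a type from less RNA per cell.

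Most nuclear-encoded members stood a little below WT in SRSF1KO, while most mitochondrially encoded members stood level with WT or a little above it, and no member passed the test. Of 107 members, 102 passed the filter on low counts: 89 nuclear and all 13 mitochondrial ones. With edgeR's quasi-likelihood test and an adjusted p under 0.05 over all 17351 genes tested, 0 members were called lower and 0 higher. Over all genes 0.213% were called lower and 0.0519% higher. At an unadjusted p under 0.05, 21 members were lower (20.6%) and 1 was higher, against 8.45% and 5.9% of all genes. That count depended on the fit and on single libraries. A refit over genes averaging 5 CPM or more gave 12 of 96 members lower (12.5%), against 10.3% of genes in the same fit. Without SRSF1KO replicate 2 there were 7 lower members (6.86%), against 7.9% of genes. There were 11 without WT replicate 3 (10.8%, against 6.53% of genes), 12 without WT replicate 1 (11.8%, against 6.27%) and 13 without SRSF1KO replicate 1 (12.7%, against 7.18%). Without SRSF1KO replicate 2 the share of members was thus no higher than that of all genes. DESeq2 called 5 of the 102 members lower and 0 higher, against 3.87% and 2.34% of all genes: Ndufb10, Atp5d, Atp5g1, Atp5e and Uqcr10. The share of members called lower was thus near that of all genes. limma-voom called 0 members in either direction. edgeR also called 0 members with no filter on low counts, where 1.13% of genes were called lower and 0.644% higher, and with a filter at a mean of 5 CPM, where 2.35% were called lower and 1.44% higher.

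The median log2 fold change (SRSF1KO over WT) was −0.18 over the 89 nuclear members and 0.18 over the 13 mitochondrial members, beside −0.01 over all genes tested. With 1 library left out the nuclear median lay between −0.19 and −0.15, and the mitochondrial median between 0.077 without SRSF1KO replicate 2 and 0.27 without SRSF1KO replicate 1. A negative value was found for 73 of the 89 nuclear members (82.0%) and for 2 of the 13 mitochondrial members, against 50.6% of all genes. A positive value was found for 16 nuclear and 11 mitochondrial members, against 49.4% of all genes. Both SRSF1KO libraries lay below all 3 WT libraries for 48 nuclear members (53.9%) and for 0 mitochondrial members, while this was so for 17.8% of all genes. Both lay above for 3 nuclear and 3 mitochondrial members, against 15.2% of all genes. Since most members are well expressed, the same counts were also taken at higher levels, chosen after the values were seen. At a mean of at least 5 CPM, 48 of 86 nuclear members (55.8%) lay below WT in both SRSF1KO libraries and 2 above, against 20.7% and 16.4% of 9932 genes. Of these 86, 73 had a negative log2 fold change (84.9%, against 52.0% of genes). At a mean of at least 20 CPM, 46 of 79 nuclear members (58.2%) lay below WT in both SRSF1KO libraries and 0 above, against 21.4% and 17.0% of 7182 genes. Of these 79, 71 were negative (89.9%, against 51.8% of genes).

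The size of these differences was small, and nuclear members differed little between libraries of the same group, mitochondrial members more. Over the 89 nuclear members the median absolute log2 fold change was 0.21. The median absolute log2 difference between the SRSF1KO libraries was 0.10, and between pairs of WT libraries it was 0.10 to 0.11. Relative to the WT mean, the median nuclear member stood at −0.17 and −0.18 in SRSF1KO replicates 1 and 2, and at 0.01, −0.02 and 0.03 in WT replicates 1, 2 and 3. The median mitochondrial member stood at 0.06 and 0.27 in SRSF1KO replicates 1 and 2, and at −0.09, 0.18 and 0.02 in WT replicates 1, 2 and 3. On the nuclear side the groups were thus apart, and on the mitochondrial side WT replicate 2 lay between the SRSF1KO libraries. WT replicate 2 and SRSF1KO replicate 1 were assigned a male pattern from high counts of the Y-linked gene Ddx3y, and the other libraries a female one. Within the male pattern the SRSF1KO minus WT medians were −0.13 for nuclear and −0.11 for mitochondrial members, and within the female pattern −0.21 and 0.31, so the sign held within both patterns for nuclear members and in 1 of them for mitochondrial members.

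**Figure D1:**
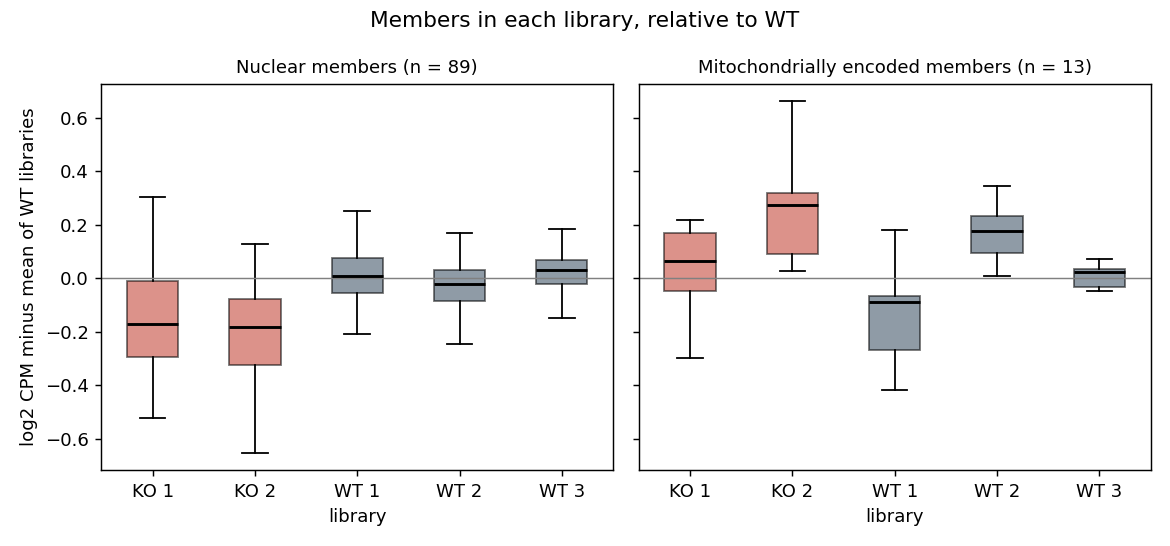
Boxes show the log2 CPM of each member minus its mean over the WT libraries, in each of the 5 libraries (KO, SRSF1KO; line, median; box, quartiles; whiskers reach the farthest point within 1.5 box lengths; points beyond are not drawn), for 89 nuclear and 13 mitochondrially encoded members. The nuclear medians of both SRSF1KO libraries, −0.17 and −0.18, lie under those of all WT libraries, while the mitochondrial medians of the groups overlap.

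The promoters of the member with the smallest p in each complex are shown to give a view of what these genes do and do not have in common upstream. Each line is the 150 bases before an annotated RefSeq start (GRCm38.p6), 5′ to 3′ on the gene's strand, and capitals mark matches of the motifs searched. They lie at chr17:24724424-24724573 (minus strand, Ndufb10), chr9:50603850-50603999 (minus, Sdhd), chr11:4704345-4704494 (minus, Uqcr10), chr9:79759854-79760003 (minus, Cox7a2) and chr10:80142125-80142274 (plus, Atp5d, the first of its 2 entries).
Ndufb10: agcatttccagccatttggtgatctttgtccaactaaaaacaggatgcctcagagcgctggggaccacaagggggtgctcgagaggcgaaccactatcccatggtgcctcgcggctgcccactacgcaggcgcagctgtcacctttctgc
Sdhd: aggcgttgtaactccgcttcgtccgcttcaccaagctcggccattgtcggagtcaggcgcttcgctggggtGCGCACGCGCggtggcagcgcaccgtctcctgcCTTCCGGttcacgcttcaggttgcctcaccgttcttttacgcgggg
Uqcr10: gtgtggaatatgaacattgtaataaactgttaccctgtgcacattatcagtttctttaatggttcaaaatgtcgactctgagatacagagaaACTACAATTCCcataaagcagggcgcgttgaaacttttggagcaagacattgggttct
Cox7a2: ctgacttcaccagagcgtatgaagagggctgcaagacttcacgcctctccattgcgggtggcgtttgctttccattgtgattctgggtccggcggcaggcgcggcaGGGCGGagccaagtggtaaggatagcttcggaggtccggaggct
Atp5d: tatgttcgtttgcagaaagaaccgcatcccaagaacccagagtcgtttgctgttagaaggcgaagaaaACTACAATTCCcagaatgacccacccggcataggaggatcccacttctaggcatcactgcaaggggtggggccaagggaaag

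The capitals in Sdhd mark an NRF1 match and an ETS match, those in Uqcr10 and Atp5d a ZNF143 match, and those in Cox7a2 an SP match. Over the RefSeq windows of 250 bases before to 50 after the start, 76 of the 94 nuclear members had an entry. The motif of NRF1, a factor long tied to respiratory genes (GCGCA and GCGC with any 1 base between, as all motifs searched on both strands), was found in 25% of these members and in 5.19% of 27025 genes. The core bound by ETS factors such as GABPA (CCGGAAG) was found in 23.7% of members and 9.93% of genes, the YY1 motif (AANATGGCG) in 14.5% and 2.76%, and the SP motif (GGGCGG) in 46.1% and 38.2%. The ZNF143 motif (ACTACA and TCC with any 2 bases between), added after the lines above had been read, was found in 9.21% of members and 2.27% of genes. Uqcr10 and Atp5d, where it was seen, are among the 7 members with a match. This choice raises its share of members, which therefore lends no support. The 27025 genes were not limited to those expressed in these cells, whereas most members are well expressed. The shares are therefore not matched for level, and whether they are particular to these members was not tested. A match may overlap one of another motif. The median log2 fold change was −0.14 with and −0.22 without an NRF1 match (19 and 55 tested members), −0.25 and −0.18 for ETS (18 and 56), −0.15 and −0.20 for YY1 (11 and 63), −0.20 and −0.19 for SP (34 and 40), and −0.21 and −0.19 for ZNF143 (7 and 67).

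Complex I, the NADH dehydrogenase, is the largest group. Its 36 tested nuclear genes stood at a median of −0.20 (log2 fold change), 31 of them negative (86.1%, against 50.6% of all genes). Both SRSF1KO libraries lay below WT for 20 of them (55.6%, against 17.8% of all genes). The 7 core subunits of the matrix arm, which carry the flavin and the iron-sulphur clusters, had a median of −0.19, and the 29 tested accessory subunits −0.21. Ndufb10, an accessory subunit of the membrane arm (ENSMUSG00000040048.14, chromosome 17, 24722060 to 24724423, GRCm38.p6), stood at 76.9 and 80.4 CPM in SRSF1KO, against 112, 106 and 113 CPM in WT. The groups were far apart relative to their spread, with means of 78.7 ± 2.48 CPM in SRSF1KO (SD, n = 2) and 111 ± 3.87 CPM in WT (SD, n = 3). Its log2 fold change of −0.49 ± 0.11 (SE) missed the threshold with edgeR (adjusted p = 0.127) and passed it with DESeq2 (adjusted p = 0.00853).

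The next complex I genes by p had smaller differences. Ndufa1, a small accessory subunit encoded on the X chromosome, stood at 63.2 and 69.1 CPM in SRSF1KO, against 83.7, 80.9 and 85.1 CPM in WT (log2 fold change −0.33 ± 0.12, edgeR adjusted p = 0.278). Ndufs7, an iron-sulphur core subunit next to the quinone site, stood at 86.9 and 83.1 CPM in SRSF1KO, against 100.1, 104 and 108 CPM in WT (−0.29 ± 0.11, edgeR adjusted p = 0.289). For both genes the groups did not overlap. Ndufv1, which holds the flavin that takes electrons from NADH, stood at 134 and 136 CPM in SRSF1KO, against 128, 129 and 138 CPM in WT (0.03 ± 0.10), and the groups overlapped. Ndufb2, an accessory subunit, lay on the other side, at 12.4 and 11.8 CPM in SRSF1KO and 7.84, 7.17 and 9.45 CPM in WT (0.57 ± 0.28, edgeR adjusted p = 0.410). It was the only nuclear complex I gene with both SRSF1KO libraries above WT.

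In complex II, succinate dehydrogenase, the 4 subunits had log2 fold changes from −0.42 to −0.05. Whether the subunits differ from each other was not tested. Sdhd, a membrane anchor (ENSMUSG00000000171.5, chromosome 9, 50596340 to 50603849), stood at 89.4 and 84.8 CPM in SRSF1KO, against 126, 121 and 103 CPM in WT, without overlap (log2 fold change −0.42 ± 0.13, edgeR adjusted p = 0.205). Sdhb, the iron-sulphur subunit, stood at 258 and 274 CPM in SRSF1KO, against 321, 282 and 299 CPM in WT, also without overlap (−0.18 ± 0.10, edgeR adjusted p = 0.476). Sdha, the flavoprotein that oxidises succinate, stood at 389 and 371 CPM in SRSF1KO, against 418, 330 and 434 CPM in WT (−0.05 ± 0.13, edgeR adjusted p = 0.917). The other membrane anchor, Sdhc, stood at 97.9 and 129 CPM in SRSF1KO, against 121, 104 and 136 CPM in WT (−0.09 ± 0.16, edgeR adjusted p = 0.886). The Sdha and Sdhc groups overlapped, and both fold changes turned positive without WT replicate 3 (0.03 for Sdha and 0.02 for Sdhc). With the replicate number as a block they were also positive (0.03 for Sdha and 0.0012 for Sdhc). So was that of Sdha without WT replicate 1 (0.0019), and that of Sdhc without SRSF1KO replicate 1 (0.10).

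In complex III, the cytochrome bc1 complex, 6 of 8 nuclear genes were negative (75.0%, against 50.6% of all genes) and the median was −0.17. Uqcr10, a small accessory subunit (ENSMUSG00000059534.8, chromosome 11, 4701968 to 4704344), stood at 78.8 and 79.2 CPM in SRSF1KO, against 103.9, 103.9 and 103.3 CPM in WT. Each group was tight, and the log2 fold change of −0.39 ± 0.11 had an adjusted p of 0.171 with edgeR and of 0.0472 with DESeq2. Uqcrq, another small subunit, stood at 105 and 107 CPM in SRSF1KO, against 135, 133 and 120.0 CPM in WT (−0.28 ± 0.11, edgeR adjusted p = 0.299). Uqcrfs1, the Rieske iron-sulphur protein, which hands electrons towards cytochrome c, stood at 163 and 182 CPM in SRSF1KO, against 208, 224 and 185 CPM in WT (−0.25 ± 0.12, edgeR adjusted p = 0.384). The large core proteins were nearer to WT, with log2 fold changes of −0.09 ± 0.10 for Uqcrc1 and 0.06 ± 0.09 for Uqcrc2. Of the other accessory subunits, Uqcrh had 0.01 ± 0.10, Uqcrb −0.09 ± 0.11 and Uqcr11 −0.28 ± 0.16. Whether large and small subunits differ was not tested.

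Complex IV, cytochrome c oxidase, had a nuclear median of −0.16 over 16 tested genes, 12 of them negative (75.0%, against 50.6% of all genes). Cox7a2, the ubiquitous isoform of subunit 7A (ENSMUSG00000032330.7), stood at 119.7 and 114 CPM in SRSF1KO, against 146, 150.2 and 145 CPM in WT (log2 fold change −0.33 ± 0.10, edgeR adjusted p = 0.202). Cox7b stood at 83.1 and 85.0 CPM in SRSF1KO, against 104, 106 and 109.7 CPM in WT (−0.34 ± 0.11, edgeR adjusted p = 0.219). Cox8a, the ubiquitous subunit 8, stood at 153 and 143 CPM in SRSF1KO, against 169, 202 and 203 CPM in WT (−0.36 ± 0.12, edgeR adjusted p = 0.237). None of these 3 genes had overlapping groups. The remaining ubiquitous partners of isoform pairs were closer to WT, with log2 fold changes of −0.23 for Cox6b1, −0.20 for Ndufa4 (now placed in complex IV), −0.14 for Cox4i1, −0.10 for Cox6a1 and −0.09 for Cox7a2l, a factor of respiratory supercomplexes.

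Isoforms known from other tissues stood above WT or were hardly detected. Cox6b2, the testis isoform of subunit 6B, stood at 19.2 and 15.0 CPM in SRSF1KO, against 5.52, 8.85 and 10.9 CPM in WT (log2 fold change 1.02 ± 0.34, edgeR adjusted p = 0.251, DESeq2 adjusted p = 0.0781). It was the 1 member that was higher at an unadjusted p under 0.05, and its groups did not overlap. Cox6a2, the heart and muscle isoform of subunit 6A, stood at 1.83 and 1.29 CPM in SRSF1KO, against 0.370, 0.357 and 0.779 CPM in WT, on 13 to 66 counts a library (1.63 ± 0.82, edgeR adjusted p = 0.421). Cox4i2 and Cox7a1 stood at or below 1.43 CPM in every library, with overlapping groups. Cox7b2, Cox8c and Ndufa4l2 had 0 counts in all libraries, and Cox8b had 3 and 4 counts in SRSF1KO and 0 in WT. These 4 and Ndufb4c, a gene of the Ndufb4 family with 1 to 4 counts, were the members under the filter.

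Complex V, ATP synthase, had a nuclear median of −0.22, with 16 of 17 genes negative (94.1%, against 50.6% of all genes). Both SRSF1KO libraries lay below WT for 12 of them (70.6%, against 17.8% of all genes). The order of the complexes by median was not stable: without SRSF1KO replicate 1, for example, the median was −0.18 for complex V and −0.26 for complex IV. Its parts were spread in value. The α and β subunits of the head, which form the catalytic sites, stood near WT: Atp5b, the β subunit, had 1471 and 1523 CPM in SRSF1KO, against 1527, 1540 and 1628 CPM in WT (log2 fold change −0.06 ± 0.08), and Atp5a1, the α subunit, had 0.07 ± 0.08. Both SRSF1KO libraries lay below WT for Atp5b and also for the smaller rotor subunits of the same head, where the differences were larger. Atp5c1, the γ subunit, had −0.17 ± 0.08. Atp5d, the δ subunit (ENSMUSG00000003072.15, chromosome 10, 80138698 to 80145828), stood at 189 and 190.1 CPM in SRSF1KO, against 241, 242 and 275 CPM in WT (−0.41 ± 0.10, edgeR adjusted p = 0.146, DESeq2 adjusted p = 0.0199). Atp5e, the ε subunit, stood at 87.9 and 79.8 CPM in SRSF1KO, against 104, 115 and 126 CPM in WT (−0.46 ± 0.13, edgeR adjusted p = 0.179, DESeq2 adjusted p = 0.0455). The 4 genes of the peripheral stalk, which holds the head still, had a median of −0.12, and the 7 nuclear genes of the membrane part −0.32. Atp5s, a distal regulator called factor B, is counted among the 17 genes but belongs to none of these parts. Its log2 fold change of −0.22 ± 0.27 is the median of the 17.

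The proton-carrying c ring is made from 3 genes that encode the same mature protein. Atp5g1 stood at 89.4 and 127 CPM in SRSF1KO, against 161, 155 and 152 CPM in WT, without overlap (log2 fold change −0.53 ± 0.16, edgeR adjusted p = 0.202, DESeq2 adjusted p = 0.0427). The SRSF1KO libraries differed from each other, and the fold change lay between −0.78 without SRSF1KO replicate 2 and −0.30 without SRSF1KO replicate 1. Atp5g2 stood at 66.9 and 59.1 CPM in SRSF1KO, against 60.3, 74.1 and 87.2 CPM in WT (−0.23 ± 0.18, edgeR adjusted p = 0.634). Atp5g3 stood at 145 and 174 CPM in SRSF1KO, against 157, 191 and 179 CPM in WT (−0.14 ± 0.13, edgeR adjusted p = 0.713). The groups of these last 2 genes overlapped. Reads of such related genes, and of members with processed pseudogenes, can be split by the counting, so their values are less certain.

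**Figure D2:**
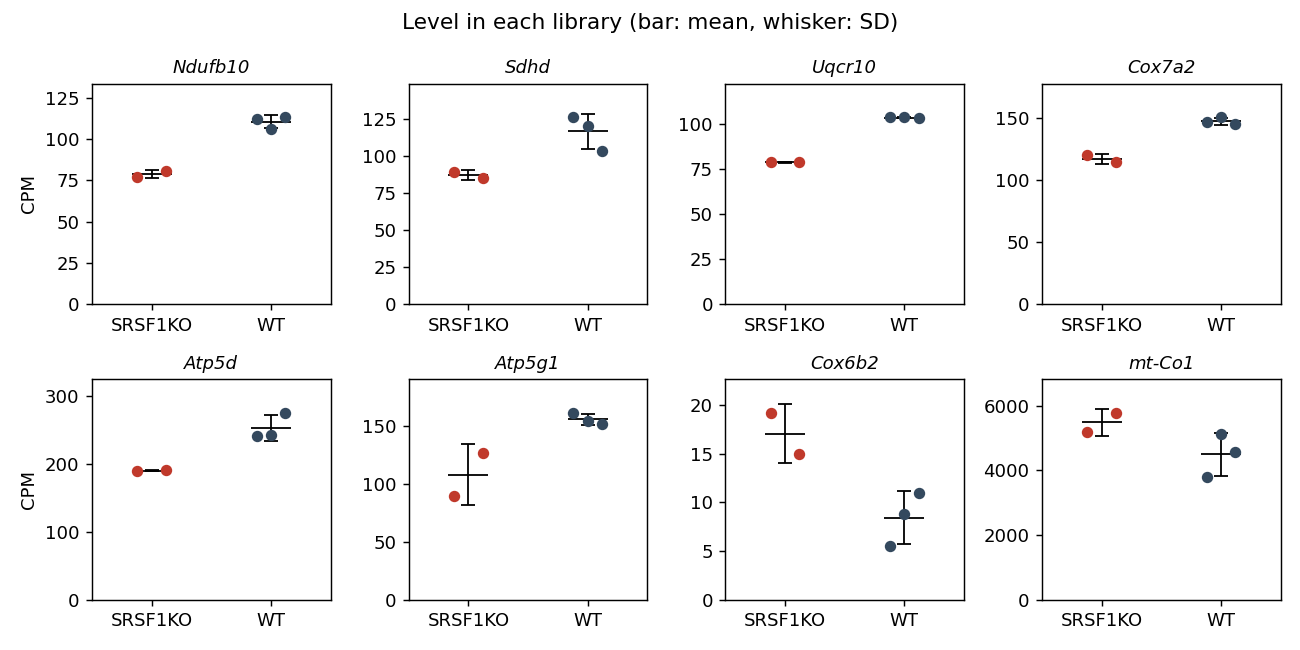
Points are the CPM of each library for 8 members, with SRSF1KO (n = 2) left of WT (n = 3), a bar at the mean and a whisker of 1 SD. For Ndufb10, Sdhd, Uqcr10, Cox7a2, Atp5d and Atp5g1 both SRSF1KO points lie below the WT points, and for Cox6b2 and mt-Co1 both lie above.

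Of the 8 Ndufaf assembly factors 4 were negative and 4 positive, with a median log2 fold change of 0.02, or −0.064 with the replicate number as a block. Their summed share of counts was 0.0153% and 0.015% in SRSF1KO, against 0.018%, 0.0159% and 0.0164% in WT, below WT in both SRSF1KO libraries (exact permutation p = 0.2). Whether they differ from the subunits was not tested. Ndufaf6, of the largest difference, stood at 6.83 and 9.60 CPM in SRSF1KO, against 16.3, 11.3 and 10.4 CPM in WT (log2 fold change −0.63 ± 0.33, edgeR adjusted p = 0.445). Ndufaf4 stood at 26.0 and 27.9 CPM in SRSF1KO, against 43.0, 32.9 and 34.9 CPM in WT (−0.45 ± 0.19, edgeR adjusted p = 0.340). The groups of these 2 genes did not overlap, whereas those of Ndufaf7 did (−0.44 ± 0.26, edgeR adjusted p = 0.501).

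**Figure D3:**
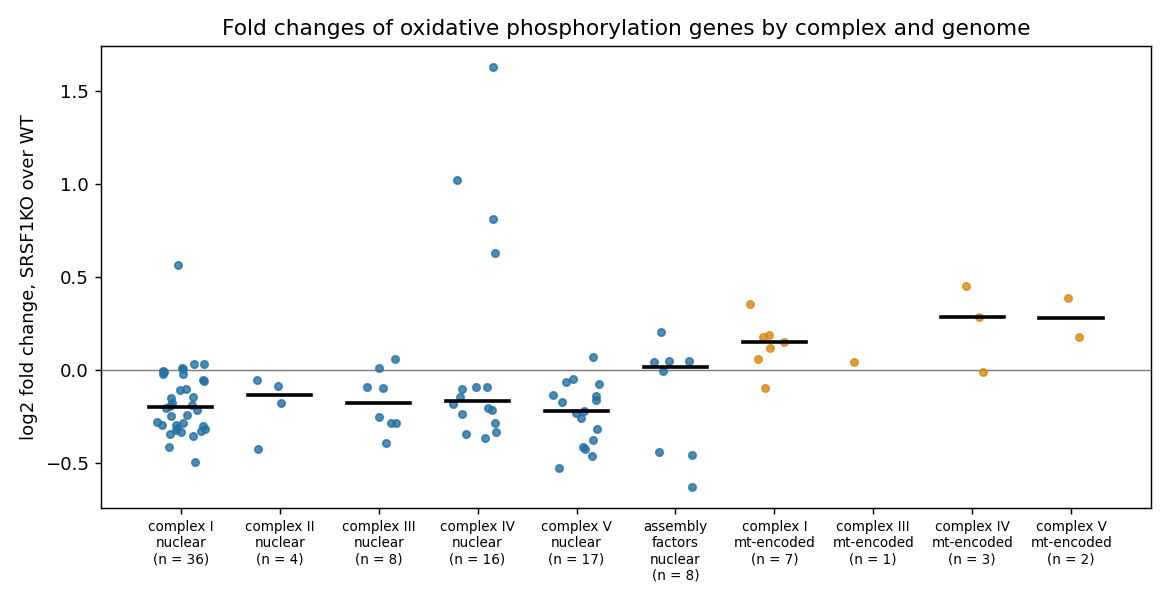
Each point is the log2 fold change (SRSF1KO over WT) of 1 of 102 tested members, set out by complex and by genome (blue, nuclear; orange, mitochondrially encoded), and black lines are medians. The nuclear medians of complexes I to V lie between −0.22 and −0.13 and those of the mitochondrially encoded sets with more than 1 gene between 0.15 and 0.29, and no point passed edgeR's test.

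The mitochondrial genome is transcribed as long precursors that are cut into single RNAs, and its 13 protein-coding genes supply core subunits of complexes I, III, IV and V. mt-Co1, the catalytic subunit of complex IV, stood at 5194 and 5780 CPM in SRSF1KO, against 3805, 5117 and 4572 CPM in WT (log2 fold change 0.29 ± 0.13, edgeR adjusted p = 0.365). Its groups did not overlap, although SRSF1KO replicate 1 and WT replicate 2 lay close together. mt-Cytb, the cytochrome b of complex III, stood at 4634 and 5820 CPM in SRSF1KO, against 5170, 5093 and 4950 CPM in WT (0.04 ± 0.10, edgeR adjusted p = 0.914). All 3 WT libraries lay between the SRSF1KO libraries. Among the 7 mitochondrial complex I genes the log2 fold changes lay between −0.09 (mt-Nd1) and 0.35 (mt-Nd4l), with a median of 0.15, and all 7 had overlapping groups. mt-Nd4 stood at 797 and 954 CPM in SRSF1KO, against 720.2, 840 and 741 CPM in WT (0.19 ± 0.11, edgeR adjusted p = 0.508), the smallest p of the 7.

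Counts per length varied widely along this genome, in the same way in both groups. The 6 neighbouring genes from mt-Co2 to mt-Nd4l (mt-Co2, mt-Atp8, mt-Atp6, mt-Co3, mt-Nd3 and mt-Nd4l) held 22 to 679 counts each in SRSF1KO and 20 to 763 in WT. The 7 other protein-coding genes held 2113 to 207997 counts in SRSF1KO and 2009 to 195764 in WT. Per length this was 2.45 to 54.6 CPM per kb for the 6 genes in SRSF1KO and 1.87 to 60.2 in WT, and 113 to 5087 CPM per kb for the other 7 in SRSF1KO and 101 to 4519 in WT. The mouse nuclear genome carries copies of mitochondrial DNA, and the RefSeq table lists a pseudogene on chromosome 1, Gm10925 (24613971 to 24614651), with mt-Atp6 among its synonyms and with the same length of 681 bases. Gm10925 held 371 and 474 counts in SRSF1KO and 413, 358 and 415 in WT, close to the 323 and 368 counts in SRSF1KO and 308, 317 and 335 in WT of mt-Atp6. How reads that match both places were counted is not given in the sources used here, and its part in the low counts was not tested. The values of these 6 genes, and the 0.45 ± 0.47 of mt-Co2 and 0.39 ± 0.91 of mt-Atp8 among them, are therefore less certain than those of the other 7.

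The same genome's ribosomal RNAs were measured beside the members. mt-Rnr2, the large ribosomal RNA, held 253595 and 220614 counts in SRSF1KO, against 181072, 235444 and 209941 in WT (log2 fold change 0.25 ± 0.13, edgeR adjusted p = 0.448). mt-Rnr1, the small one, had 0.36 ± 0.21 (edgeR adjusted p = 0.491). The groups of both RNAs overlapped. Of 22 mitochondrial tRNA genes 21 had at most 1 count in every library.

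**Figure D4:**
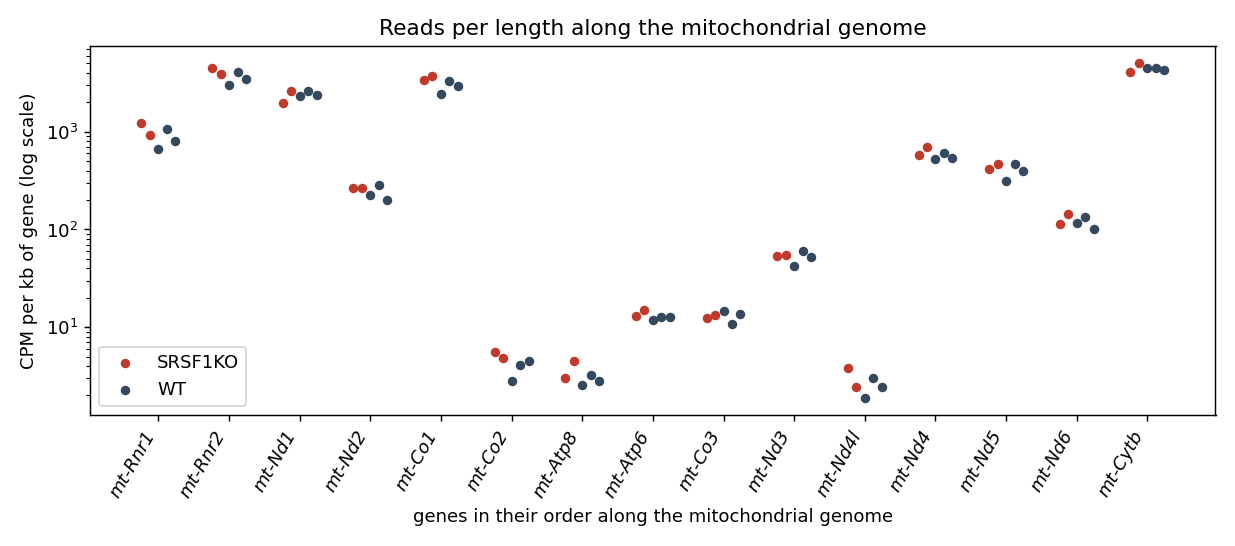
Points are CPM per kb of gene length (log axis) for the 2 ribosomal RNAs and 13 protein-coding genes in their order along the mitochondrial genome, in 2 SRSF1KO (red) and 3 WT (dark blue) libraries. The 6 genes from mt-Co2 to mt-Nd4l lie between 1.87 and 60.2 CPM per kb and all other genes at 101 or more, in both groups.

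The balance of the genomes was read within each library. Shares of counts depend on the other genes in the library total, and only the ratio of mitochondrial to nuclear counts is free of scaling between libraries. The 94 nuclear members took 1.21% and 1.17% of all counts in SRSF1KO, against 1.34%, 1.29% and 1.33% in WT, a mean of 1.19 ± 0.0266% (SD, n = 2) and 1.32 ± 0.0278% (SD, n = 3). Both SRSF1KO libraries lay below all WT libraries, and the exact two-sided permutation test gave p = 0.1, the smallest that 10 arrangements of 2 and 3 libraries allow. The 13 mitochondrial members took 1.37% and 1.61% in SRSF1KO, against 1.31%, 1.48% and 1.34% in WT (exact permutation p = 0.4), with overlap. mt-Co1 and mt-Cytb alone made up 0.983% and 1.15% in SRSF1KO, against 0.915%, 1.02% and 0.941% in WT. Gm26917, an abundant non-coding RNA gene, differed with the groups: it took 4.47% and 4.14% of counts in SRSF1KO, against 1.84%, 2.69% and 2.98% in WT. With Gm26917 and CT010467.1 left out of the total, the difference of the nuclear share was −0.108 percentage points, against −0.132 with them.

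Mitochondrial counts per nuclear count were 1.13 and 1.38 in SRSF1KO, against 0.974, 1.14 and 1.01 in WT. On the log2 scale the ratio was 0.32 ± 0.20 in SRSF1KO (SD, n = 2) and 0.05 ± 0.12 in WT (SD, n = 3), a difference of 0.27 (exact two-sided permutation p = 0.3). WT replicate 2 lay just above SRSF1KO replicate 1, so the higher mean of SRSF1KO leaned on its replicate 2. Without SRSF1KO replicate 2 the difference was 0.12, and that of the mitochondrial share was −0.0091 percentage points in place of 0.115. By complex, the nuclear share of complex I was 0.308% and 0.291% in SRSF1KO, against 0.355%, 0.328% and 0.339% in WT, and the groups were likewise apart for complexes III, IV and V (exact permutation p = 0.1 for each). The complex II share overlapped, at 0.0834% and 0.0851% in SRSF1KO and 0.101%, 0.0834% and 0.0961% in WT (exact permutation p = 0.4).

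**Figure D5:**
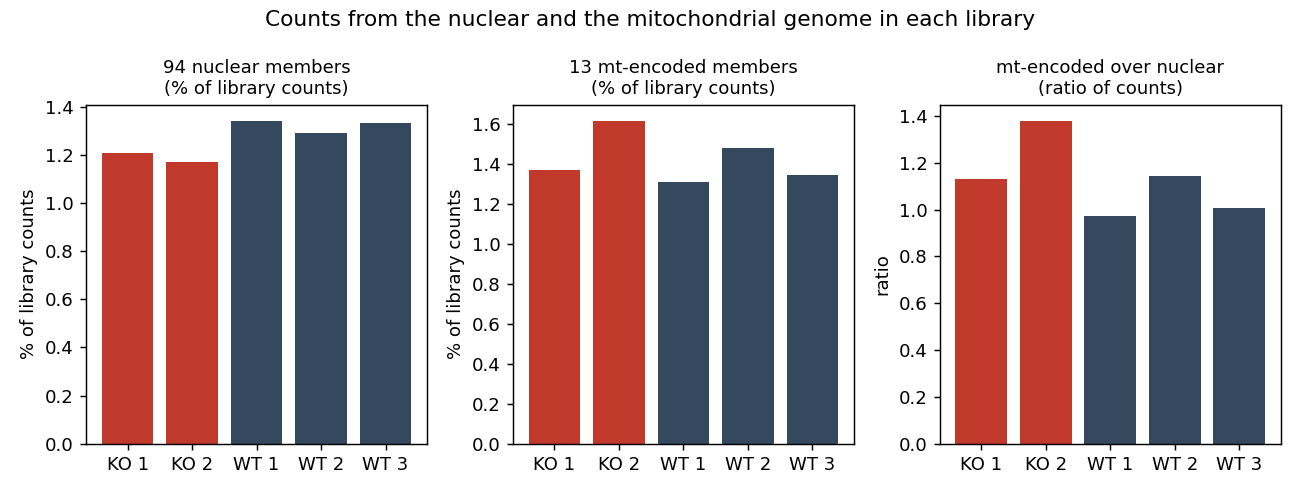
Bars show, for 2 SRSF1KO (red) and 3 WT (dark blue) libraries, the percentage of library counts taken by 94 nuclear members, by 13 mitochondrially encoded members, and the ratio of the second to the first. The nuclear share of both SRSF1KO libraries (1.21% and 1.17%) lies under every WT library (1.29% to 1.34%), while the mitochondrial share and the ratio overlap.

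Neighbouring pathways were read from lists, and 0 genes of any list were called with edgeR. Of 39 tested assembly factors and electron carriers outside the symbol patterns, 27 were negative (median log2 fold change −0.15), with 6 lower and 0 higher at an unadjusted p under 0.05. Over all genes 50.6% were negative, 8.45% lower and 5.9% higher by the same measures. Sdhaf3, an assembly factor of complex II, stood at 3.33 and 3.13 CPM in SRSF1KO, against 6.79, 9.10 and 8.62 CPM in WT (−1.34 ± 0.35, edgeR adjusted p = 0.164, DESeq2 adjusted p = 0.0223). Nubpl, which helps to place iron-sulphur clusters in complex I, stood at 2.77 and 4.34 CPM in SRSF1KO, against 8.34, 7.64 and 8.15 CPM in WT (−1.18 ± 0.37, edgeR adjusted p = 0.221).

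The 27 tested genes of mitochondrial DNA expression had a median of 0.01, with 12 negative and 15 positive. Mterf3, a regulator of mitochondrial transcription, stood at 41.0 and 35.4 CPM in SRSF1KO, against 47.5, 60.6 and 50.3 CPM in WT (−0.47 ± 0.17, edgeR adjusted p = 0.288). Polg2, the accessory subunit of the mitochondrial DNA polymerase, had −0.69 ± 0.29 (edgeR adjusted p = 0.331). The 18 genes of the tricarboxylic acid cycle and pyruvate dehydrogenase had a median of 0.05, with 8 negative and 10 positive. Pdha1, a pyruvate dehydrogenase subunit, stood at 166 and 207 CPM in SRSF1KO, against 158, 137 and 156 CPM in WT (0.31 ± 0.13, edgeR adjusted p = 0.337), and Dlst had 0.28 ± 0.13 (edgeR adjusted p = 0.394). The 21 glycolysis genes had a median of −0.06, with 13 negative and 8 positive and values from −2.41 to 0.40. Of these, 0 genes were at an unadjusted p under 0.05. The 2 of smallest p were Slc16a1 at 0.26 ± 0.14 and Ldhb at 0.24 ± 0.13. The 12 tested regulators of respiratory genes had a median of 0.07, with 4 negative and 8 positive. Myc, a transcription factor of growth and metabolism, stood at 46.6 and 71.2 CPM in SRSF1KO, against 96.8, 104 and 90.0 CPM in WT (−0.72 ± 0.19, edgeR adjusted p = 0.169, DESeq2 adjusted p = 0.0130), and Creb1 had 0.22 ± 0.10 (edgeR adjusted p = 0.381).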

How the data were processed

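Gene expression was measured by bulk RNA-seq of 2 SRSF1KO and 3 WT samples, built by Smart-seq2 from column-purified RNA per the labels. The values are whole-number counts for 53715 versioned Ensembl IDs, deposited without normalisation; 0 columns belonged to no sample. The submitters' processing notes list, without roles, HTSeq 0.6.1, Bowtie2 2.1.0, HOMER 4.9.1, DESeq2 1.20.0, cutadapt 1.17, FastQC 0.11.5, Trim Galore and build mm10. No source used here gives the annotation release or the strand setting, so reads of overlapping and antisense genes cannot be told apart. Not analysed here were the 4 CLIP-seq samples.

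IDs were matched to symbols (53620 of 53715), and positions and biotypes came from RefSeq (GRCm38.p6), for all 107 members. edgeR 4.0.16 in R 4.3.3 (TMM, filterByExpr, robust glmQLFit, glmQLFTest, group as only term) was fitted over all genes, with Benjamini-Hochberg adjustment over the 17351 tested. All tests were two-sided. SE was derived from the F statistic. Shares and ratios were compared by exact permutation over libraries. Per-length values use the RefSeq gene length. Promoter windows are RefSeq's. The script was tested on simulated counts. No 2 libraries agreed within sampling noise (chi-square per degree of freedom 40.1 or more).

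Named were the 3 members of smallest p in each complex, up to 5 of the largest difference each way at a mean of at least 5 CPM without overlap, all Sdh and mitochondrial genes, isoform pairs, and from each pathway list up to 2 genes of smallest p. Further members were added after their values were seen (Ndufv1, Uqcrc1, Uqcrc2, Uqcrh, Uqcrb, Uqcr11, Atp5a1 and Atp5b). The members and lists were chosen with earlier results of these data known. Alternatives were DESeq2 1.42.0, limma-voom (limma 3.58.1), other scalings and filters, and library sizes from nuclear genes. Further ones were a replicate block, a term for the male or female pattern of Ddx3y, and leaving out each library. With 1 SRSF1KO library left out, the other is assumed to vary like WT.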

Additional observations from a re-analysis of the deposited data

How the results depend on the processing

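The count of 0 members called lower was 5 of 102 with DESeq2, against 3.87% of all genes, and 0 under every other alternative tried. Under all of them 0 members were called higher. The number of members lower at an unadjusted p under 0.05 was 21 and lay between 6 and 22 under the other settings (12 at a mean of at least 5 CPM) and between 7 and 18 with 1 library left out (7 without SRSF1KO replicate 2); members higher numbered 1, and 1 to 3 under the alternatives. The nuclear median kept its sign throughout: it was −0.16 with upper quartile scaling and −0.19 to −0.15 with 1 library left out. With 1 library left out the nuclear median lay between −0.23 and −0.13 for complex I, −0.26 and −0.13 for complex IV, −0.20 and −0.16 for complex V, and −0.055 and 0.066 for assembly factors, and the mitochondrial complex V median between 0.085 and 0.46. The mitochondrial share differed by −0.0091 to 0.239 percentage points, turning negative without SRSF1KO replicate 2, and by 0.155 with Gm26917 and CT010467.1 left out of the total; the nuclear share differed by −0.151 to −0.114 (−0.108 without those genes). The log2 ratio differed by 0.12 to 0.41, and by 0.37 between medians over members. The cause of these shifts was not tested. Of 44 named members tested, 34 kept their sign in every alternative run for them (14 for 38 members, 13 for the 6 under a mean of 5 CPM); of the 10 that did not, 6 are mitochondrial. The mitochondrial median lay between 0.077 and 0.27 with 1 library left out. The replicate numbers are not said to pair the libraries, and the deviations of same-numbered libraries correlated at −0.02 and 0.03. With the replicate block 0 members were called, 6 were lower at an unadjusted p under 0.05 (5.88%, against 5.27% of all genes), and the medians were −0.17 for nuclear complex V and −0.064 for assembly factors. With 2 against 3 libraries, a p that misses the threshold does not show that a member did not differ.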

Other observations

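Some subunits of the complexes carry symbols that the patterns miss, and they were chosen after the members' values were seen, although Cyc1 and Cycs also stand in the list of assembly factors and carriers. Cyc1, the cytochrome c1 of complex III, stood at 168 and 188 CPM in SRSF1KO, against 237, 210.3 and 219 CPM in WT, without overlap (log2 fold change −0.32 ± 0.11, edgeR adjusted p = 0.244). Usmg5, a small subunit of ATP synthase, stood at 80.6 and 64.5 CPM in SRSF1KO, against 88.2, 86.8 and 94 CPM in WT, also without overlap (−0.31 ± 0.14, edgeR adjusted p = 0.370). Ndufb1-ps, left out for its pseudogene symbol although RefSeq lists it as the protein-coding gene Ndufb1 of complex I, had −0.15 ± 0.17, and Cycs, the electron carrier cytochrome c, −0.15 ± 0.11, both with overlapping groups. Atpif1, the inhibitor of ATP synthase, stood at 48.0 and 47.3 CPM in SRSF1KO, against 51.4, 42.7 and 53.5 CPM in WT (−0.05 ± 0.16).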
